A study of Mus musculus with 9 samples.

Results

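The 9 genes described here encode enzymes that break down threonine and carry single carbon units through the folate pool of the mouse cell: Tdh, Gcat, Gldc, Shmt1, Shmt2, Mthfd1, Mthfd2, Mthfd1l and Tyms. They were chosen by symbol, from earlier results of these same libraries, out of 54232 gene entries in the count table, and all 9 were found and had enough counts to be fitted in every comparison. Because the choice was made with these data in view, their levels and fold changes are given as a description without p-values. The study sequenced poly(A) RNA of 1 mouse embryonic stem cell line, OG2 (C57 x CBA background, with a GFP reporter driven by the Oct4 distal promoter), held in 2 states of pluripotency. Naïve cells grew in serum and LIF medium (S/L). Primed cells, converted from them, grew in bFGF and Activin A medium (F/A), and cells of both states lay on feeder layers of mitomycin C-treated mouse embryonic fibroblasts. Each state was collected at passage 5 (P5) and passage 15 (P15) with 2 libraries per group, and 1 unreplicated library came from mouse embryonic fibroblasts (MEF) of the same background. The naïve and primed medium differ in many components, so state and medium cannot be told apart. Since all cells derive from 1 line, the values describe that line.

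In mitochondria, threonine dehydrogenase (TDH) oxidises threonine, and glycine C-acetyltransferase (GCAT) splits the product into glycine and acetyl-CoA. The glycine cleavage system, whose decarboxylase is GLDC, passes a carbon of glycine to tetrahydrofolate, and the serine hydroxymethyltransferases SHMT2 (mitochondria) and SHMT1 (cytosol) do the same with serine. MTHFD2 and MTHFD1L convert the mitochondrial carbon units to formate, MTHFD1 takes up formate in the cytosol, and thymidylate synthase (TYMS) spends a carbon unit to make the thymidine nucleotide of DNA. Mouse embryonic stem cells are known for high TDH and for needing threonine in the medium.

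The 8 stem cell libraries held between 14378051 and 20985136 counts, and that of MEF 25646547. Levels are library-scaled counts (CPM, each library brought to a common total by TMM scaling). On this scale 3 counts, the limit that a count of 0 allows, equal 0.128 CPM in MEF and 0.148 to 0.221 CPM elsewhere (counting error only). All 5 naïve state markers (Zfp42, Esrrb, Klf2, Tfcp2l1, Dppa3) were lower in every primed than in every naïve library at both passages, and all 5 primed state markers (Fgf5, Otx2, T, Cer1, Pou3f1) were higher, as the labels state. The naïve markers summed to 151 to 152 CPM in primed cells at P5 and to 30.8 to 34.5 CPM at P15, against 1398 to 1628 CPM in the naïve libraries. Transcripts of fibroblast markers were present in every library, with 30 of 30 markers above 3 counts. In naïve and primed libraries the median was 14.1 to 25.2% of the MEF level, and the lowest of the markers 2.51 to 6.61%. Their summed level was 14876 and 14973 CPM in naïve P5, 10340 and 10622 in primed P5, 23816 and 24989 in naïve P15, 18839 and 19685 in primed P15 and 99957 in MEF. At P5, 21 of these 30 were lower in primed cells and 7 higher without overlap of the libraries, and at P15 12 were lower and 16 higher. The markers thus did not move together, and whether all of their RNA came from feeder cells was not tested. In such bulk libraries, fewer cells of a type and less RNA per cell cannot be told apart.

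Tdh, the first enzyme of threonine breakdown (chr14:63492347-63509092, minus strand, GRCm38), was at 277 and 267 CPM in the naïve libraries at P5 and at 287 and 280 CPM at P15. Primed cells had 30.6 and 26.2 CPM at P5, from 615 and 473 counts. At P15 they had 0.631 and 0.454 CPM, from 11 and 8 counts. The primed libraries lay far below the naïve ones at both passages, and the primed P15 libraries far below the primed P5 libraries. The MEF library held 0 counts of Tdh, so feeder RNA added nothing measurable to it. In group means, Tdh in primed cells was 28.4 ± 3.06 CPM (SD, n = 2) against 272 ± 6.99 at P5, which is 10.4% of the naïve level, and 0.543 ± 0.125 against 284 ± 5.04 at P15, which is 0.191% and a 522-fold difference. The fitted log2 fold change was −3.22 ± 0.05 (standard error) at P5 and −9.02 ± 0.13 at P15. These were the 210th lowest of 16482 genes and the 41st lowest of 15733 genes. Without primed P15 replicate 1 the P15 value was −9.25, and without replicate 2 it was −8.78. The standard error at P15, from 11 and 8 primed counts, was smaller than these shifts and understates the uncertainty. Between the passages the naïve level differed by 0.06 ± 0.04 on the log2 scale and the primed level by −5.73 ± 0.20. The primed value was −5.98 without primed P15 replicate 1 and −5.50 without replicate 2.

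**Figure D1:**
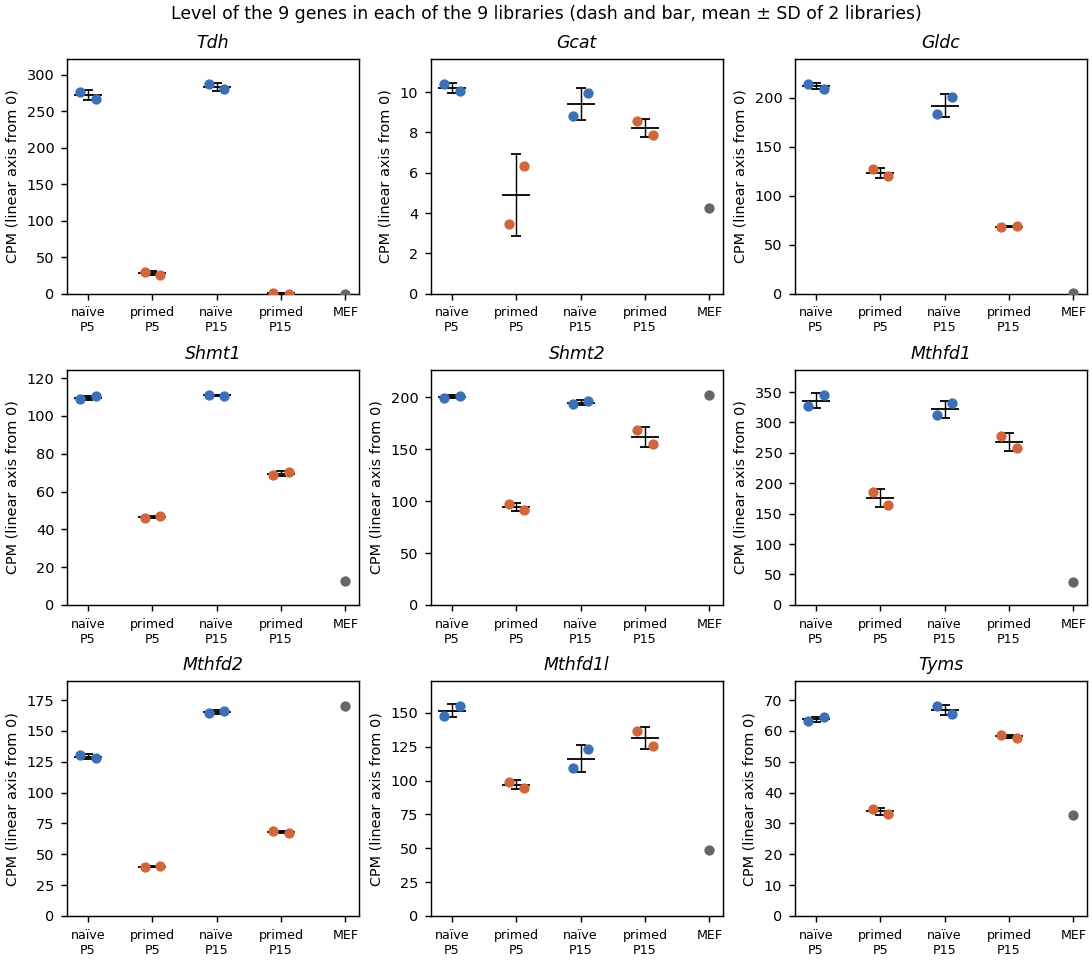
Level of each of the 9 genes in CPM (linear vertical axis from 0, its own scale per gene) in every library, by group on the horizontal axis (blue, naïve; orange, primed; grey, MEF); dash and bar give the mean ± SD of 2 libraries. All 9 genes were lower in primed than in naïve cells at P5, while at P15 Tdh and Gldc were lower still and the other 7 genes were higher than in primed cells at P5.

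Over the 4 groups, the pattern of Tdh was followed most closely by 5 genes, named by Pearson's r on log2(CPM + 1) over the 8 naïve and primed libraries among 10001 genes with a mean of at least 10 CPM. They were Lncenc1 (r = 0.9996), a long noncoding RNA, Dppa4 (r = 0.9993), Rnf17 (r = 0.9991), Esrrb (r = 0.9988), a transcription factor of the naïve state, and Zfp42 (r = 0.9986), also known as Rex1. The 8 libraries form 4 groups of 2, so these coefficients describe the spacing of 4 group levels and carry no p. Esrrb went from 515 CPM in naïve P5 to 57.3 in primed P5 and from 464 in naïve P15 to 4.06 in primed P15. Zfp42 went from 210 to 17.3 CPM at P5 and from 229 to 0.228 at P15. Primed cells thus held 11.1% of the naïve level of Esrrb and 8.24% of that of Zfp42 at P5, beside 10.4% for Tdh, and 0.874% and 0.0996% at P15, beside 0.191%. The other 3 naïve markers in primed cells were between 4.94% (Klf2) and 19.2% (Dppa3) of the naïve level at P5, and between 2.59% (Tfcp2l1) and 4.62% (Klf2) at P15. Klf2 is the marker with a high MEF level, at 44.6 CPM. Whether the residual Tdh at P5 came from a few cells still in the naïve state or from all cells was not tested.

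**Figure D2:**
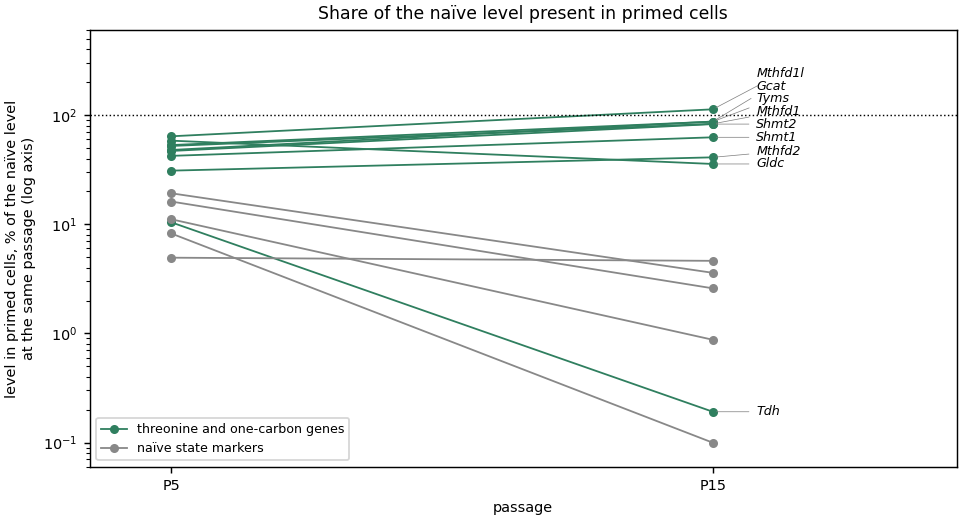
Mean level in primed cells as a percentage of the naïve mean at the same passage (log vertical axis) at P5 and P15, for the 9 genes (green, named at the right) and 5 naïve state markers (grey); the dotted line is the naïve level. Tdh ran among the naïve markers, from 10.4% to 0.191%, while the other 8 genes stayed between 31.0% and 113% at both passages.

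Gcat, the enzyme that acts on the product of TDH (chr15:79030874-79038353, plus strand), was weakly expressed, at 10.4 and 10.04 CPM in naïve P5, 3.48 and 6.32 in primed P5, 8.84 and 9.98 in naïve P15, 8.55 and 7.90 in primed P15 and 4.25 in MEF. The 2 primed P5 libraries were the lowest of the 8 and stood apart from each other. The log2 fold change of primed over naïve cells was −1.04 ± 0.18 at P5 and −0.21 ± 0.16 at P15. Without primed P5 replicate 1 the P5 value was −0.63, and without replicate 2 it was −1.49, so its size depended on which library was kept. Another entry annotated as Gcat covers 47.5% of its exon bases and had 0 counts in all libraries, which makes the level of Gcat uncertain. In contrast to Tdh, Gcat at P15 was at 87.4% of the naïve level.

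Gldc, the decarboxylase of the glycine cleavage system (chr19:30098447-30175429, minus strand), was at 214 and 209 CPM in naïve P5, 127 and 120 in primed P5, 183 and 200 in naïve P15 and 68.2 and 68.9 in primed P15. The primed libraries were below the naïve ones at both passages, and those at P15 below those at P5. The level of Gldc in MEF was 0.851 CPM, so the median feeder share could supply at most 0.310% of it in any group. Its log2 fold change was −0.74 ± 0.04 at P5 and −1.50 ± 0.07 at P15. Gldc and Tdh were the 2 members lower in primed cells at P15 than at P5, by −0.88 ± 0.06 for Gldc, and each had the other as its most alike member over the 8 libraries (r = 0.994, a description over 4 groups). The difference in size between them was large, since Gldc at P15 kept 35.7% of its naïve level.

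The promoter of Gldc, 250 bases before to 50 bases after the RefSeq start (GRCm38.p6), is shown first among 3 promoters, with that of Mthfd2, since these were the 2 genes besides Tdh at least 2-fold lower in primed cells at P15, and with that of Tyms, which held 2 of the searched motifs. The RefSeq start used for Mthfd2 lies inside the longer span that GENCODE gives this gene. RefSeq gave such a stretch for 8 of the 9 genes (no entry for Tdh). Searched on both strands were the E-box CACGTG, bound by MYC among others, TGATGNAA, a C/EBP-ATF composite of the kind ATF4 binds, and TTTNNCGC, a loose E2F site. They do not overlap in the stretches shown, and capitals mark a match.
Gldc promoter, chr19:30175392-30175691, minus strand: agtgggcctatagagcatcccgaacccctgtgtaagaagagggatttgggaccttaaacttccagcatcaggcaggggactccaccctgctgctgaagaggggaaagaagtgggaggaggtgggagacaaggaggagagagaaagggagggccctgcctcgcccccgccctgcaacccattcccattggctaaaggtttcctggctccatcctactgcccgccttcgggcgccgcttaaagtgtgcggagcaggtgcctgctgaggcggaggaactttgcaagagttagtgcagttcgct
Mthfd2 promoter, chr6:83317555-83317854, minus strand: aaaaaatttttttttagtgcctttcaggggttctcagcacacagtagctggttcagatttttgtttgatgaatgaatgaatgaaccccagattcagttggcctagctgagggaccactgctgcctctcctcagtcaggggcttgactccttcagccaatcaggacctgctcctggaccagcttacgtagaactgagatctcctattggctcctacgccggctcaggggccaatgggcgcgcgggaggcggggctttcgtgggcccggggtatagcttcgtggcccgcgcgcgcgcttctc
Tyms promoter, chr5:30073576-30073875, minus strand: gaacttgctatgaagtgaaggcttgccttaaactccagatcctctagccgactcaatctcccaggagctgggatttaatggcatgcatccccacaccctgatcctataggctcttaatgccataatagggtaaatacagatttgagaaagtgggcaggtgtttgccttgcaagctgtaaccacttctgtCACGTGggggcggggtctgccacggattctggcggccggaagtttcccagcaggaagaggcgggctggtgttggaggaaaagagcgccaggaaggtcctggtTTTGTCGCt
The stretches of Gldc and Mthfd2 held none of these letters, while that of Tyms held CACGTG at position −61 and TTTNNCGC at position 41 from the start. Among the other members, CACGTG was found in Gcat, at position 2, and TTTNNCGC in Shmt2, at position 29, and the composite was in none of the 8. Of all 32851 RefSeq promoters of this length, 7.15% held CACGTG, 3.97% TGATGNAA and 5.17% TTTNNCGC. A match is a match of letters and says nothing of binding.

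Shmt2, the mitochondrial serine hydroxymethyltransferase (chr10:127517123-127522444, minus strand), was at 199 and 202 CPM in naïve P5, 96.9 and 91.6 in primed P5, 193 and 196 in naïve P15 and 168 and 155 in primed P15. Its cytosolic paralogue Shmt1 (chr11:60788104-60811718, minus strand) was at 109 and 110 CPM in naïve P5, 46.0 and 46.8 in primed P5, 111 and 111 in naïve P15 and 68.5 and 70.4 in primed P15. Neither gene's primed libraries overlapped the naïve ones, and both were nearer to the naïve level at P15. The log2 fold change of Shmt2 was −1.06 ± 0.04 at P5 and −0.28 ± 0.06 at P15. For Shmt1 it was −1.21 ± 0.05 and −0.68 ± 0.07. MEF held 202 CPM of Shmt2 and 12.7 CPM of Shmt1. Per exon length, Shmt2 exceeded Shmt1 2.18 to 2.29 times in the naïve libraries, 2.44 to 3.07 times in the primed libraries and 19.9 times in MEF. The median feeder share could supply 31.1% (P5) and 31.3% (P15) of Shmt2 in primed cells. By the lowest single fibroblast marker, these shares were 6.27% and 3.25%. Both estimates were too high for Aldh1l2 in primed cells, as given below. With the median share taken off the counts, the log2 fold change at P5 was −1.34 for Shmt2 and −1.26 for Shmt1. At P15 it was −0.38 for Shmt2, while Shmt1 stayed between −0.71 and −0.58 under every alternative run. The part of feeder RNA in the higher ratio was not tested further.

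Mthfd2, the mitochondrial dehydrogenase and cyclohydrolase (chr6:83305691-83325908, minus strand), was at 131 and 128 CPM in naïve P5, 40.0 and 40.2 in primed P5, 164 and 166 in naïve P15 and 68.5 and 67.3 in primed P15. The primed libraries were at 31.0% of the naïve level at P5 and at 41.1% at P15, and at P5 this was the lowest share after that of Tdh. On the log2 scale the difference was −1.66 ± 0.05 at P5 and −1.29 ± 0.07 at P15. Fibroblasts expressed it at 170 CPM, and the median feeder share would amount to 61.6% (P5) and 62.6% (P15) of its level in primed cells, against 22.2% and 20.4% in naïve cells. By the lowest single fibroblast marker, these shares were 12.4% and 6.50% in primed cells. For Aldh1l2 in primed cells both estimates were too high, as given below. With the median share taken off the counts, the log2 fold change was −2.69 at P5 and −2.28 at P15, so the size of the Mthfd2 difference depended on the feeder estimate while its direction did not. Its mitochondrial paralogue Mthfd2l went the other way: it rose by 1.42 ± 0.15 at P5 (edgeR adjusted p = 1.8e-09) and by 1.77 ± 0.16 at P15 (adjusted p = 3.23e-12), from a low level of 4.11 to 5.95 CPM in naïve cells to 10.8 to 18.3 CPM in primed cells. Per exon length, Mthfd2 exceeded Mthfd2l 53.3 to 70.8 times in naïve libraries and 6.73 to 7.30 times in primed libraries, with 26.1 times in MEF.

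Mthfd1, the trifunctional cytosolic enzyme (chr12:76255298-76319803, plus strand), had the highest CPM of the members in the naïve and primed libraries, at 327 and 345 in naïve P5, 186 and 165 in primed P5, 312 and 331 in naïve P15 and 278 and 258 in primed P15, with 37.6 in MEF. Its log2 fold change was −0.90 ± 0.04 at P5 and −0.27 ± 0.06 at P15. Mthfd1 and Shmt2 had each other as most alike member (r = 0.994 over the 8 libraries). Mthfd1l, the mitochondrial formate-producing ligase (chr10:3973118-4167081, plus strand), was at 148 and 155 CPM in naïve P5, 99.2 and 94.6 in primed P5, 109 and 123 in naïve P15 and 137 and 126 in primed P15, with 49.0 in MEF. It was the member whose order turned between the passages: both primed libraries were below both naïve ones at P5 and above them at P15. The log2 fold change was −0.61 ± 0.04 at P5 and 0.17 ± 0.07 at P15, and the P15 value was 0.06 without naïve P15 replicate 1. Its level differed between passages in both states: in naïve cells it was lower at P15 than at P5 by −0.38 ± 0.06 and in primed cells higher by 0.41 ± 0.06. Per exon length, Mthfd1l was 0.350 to 0.453 times Mthfd1 in naïve libraries, 0.488 to 0.574 times in primed libraries and 1.30 times in MEF.

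Tyms, thymidylate synthase (chr5:30058202-30073617, minus strand), was at 63.2 and 64.4 CPM in naïve P5, 34.8 and 33.1 in primed P5, 68.0 and 65.6 in naïve P15 and 58.6 and 57.8 in primed P15, with 32.9 CPM in MEF. The primed libraries were below the naïve ones at both passages, by a narrow gap at P15. Its log2 fold change was −0.88 ± 0.06 at P5 and −0.21 ± 0.07 at P15. A pseudogene of Tyms is annotated on chromosome 10, and how reads shared between the copies were counted was not given in the sources used here.

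**Figure D3:**
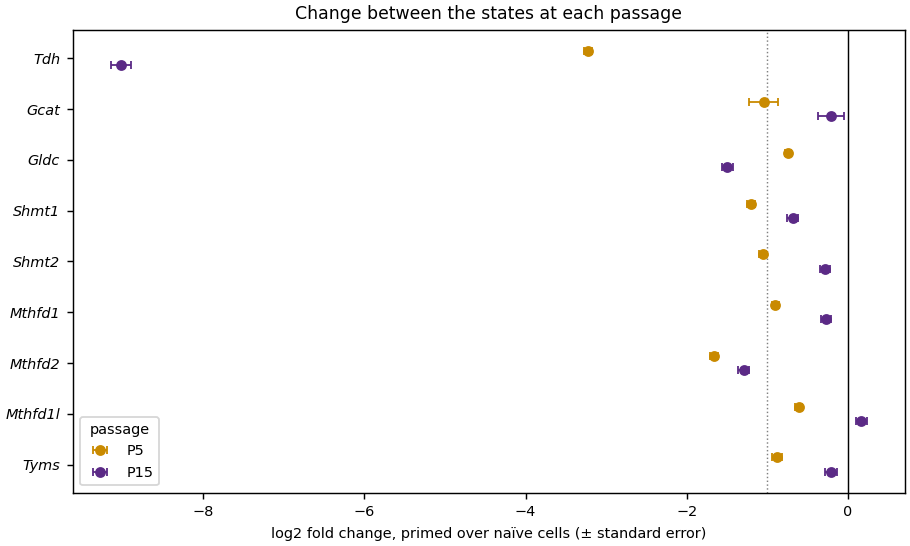
Fitted log2 fold change of primed over naïve cells (horizontal axis; bars, standard error) for each of the 9 genes at P5 (ochre) and P15 (purple), with 2 libraries per group; the solid line marks no difference and the dotted line a 2-fold lower level. Tdh and Gldc lay further left at P15 than at P5, and the other 7 genes further right, Mthfd1l past the line of no difference.

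At P5, all 9 members were lower in primed cells and none overlapped the naïve libraries, where 43.6% of all genes tested were lower without overlap. At least 2-fold lower were 5 members (Tdh, Gcat, Shmt1, Shmt2 and Mthfd2), beside 10% of all genes. The median log2 fold change of the members was −1.04, and that of all genes 0.01. Scaling by library size alone moved the median of all genes by 0.20 and left 3 of the 5 past 2-fold, with all 9 still lower. At P15, 8 members were lower without overlap, beside 40.2% of all genes, and Mthfd1l was higher, beside 41.7%. Only Tdh, Gldc and Mthfd2 were at least 2-fold lower at P15, beside 12.1% of all genes, and the members' median was −0.28. The choice of members used these contrasts, so nothing is read from the gap to the background.

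The comparisons between passages use the same libraries as those between states and are not independent of them. In naïve culture 4 members were higher at P15 than at P5 without overlap (28.4% of all genes) and 4 were lower (29.6%), with Mthfd1 overlapping. The log2 differences ran from −0.38 (Mthfd1l) to 0.36 (Mthfd2). In primed culture the 9 genes parted: 7 were higher at P15 without overlap (41.6% of all genes) and 2, Tdh and Gldc, were lower (36.5%). The 7 higher ones differed by 0.41 (Mthfd1l) to 0.75 (Tyms) on the log2 scale. The size for Gcat, 0.73 ± 0.20, again depended on which library was kept, since it was 0.32 without primed P5 replicate 1 and 1.19 without replicate 2. As the difference between the state effects at P15 and P5, the values were −5.78 ± 0.18 for Tdh and −0.74 ± 0.08 for Gldc, and between 0.38 ± 0.08 (Mthfd2) and 0.85 ± 0.25 (Gcat) for the other 7. That of Tdh was −6.03 without primed P15 replicate 1 and −5.56 without replicate 2. The summed fibroblast markers were also higher at P15 than at P5 in both states. With the median feeder share taken off, the 7 values in primed cells kept their sign. Those of Mthfd1l, Shmt1, Mthfd1, Mthfd2, Shmt2 and Tyms were then larger, at 0.56, 0.73, 0.76, 0.88, 0.93 and 0.94. The part of feeder RNA in these values was not tested further.

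Compared between genes per kilobase of exon, the order of the levels changed with state. In naïve P5, Tdh was the highest at 104 CPM per kb, followed by Mthfd1 (75.7), Shmt2 (64.5), Mthfd2 (37.0), Gldc (34.7), Mthfd1l (34.1), Shmt1 (28.2), Tyms (10.5) and Gcat (4.29). The libraries of Gldc and Mthfd1l overlapped in that order, and no other neighbours did. Tdh was also first in naïve P15, at 108 CPM per kb. In primed P5 it was the 7th, at 10.9, overlapping Mthfd2 at 11.5, and in primed P15 it was the last of the 9, at 0.208. Mthfd1 and Shmt2 led in the primed libraries, at 39.5 and 30.3 CPM per kb at P5 and 60.3 and 51.9 at P15. Shmt2 and Mthfd2 led in MEF, at 65.0 and 48.7. Length here is the union of all annotated exons, which may exceed that of the transcripts present.

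Around these enzymes, 54 other genes of the pathway in 7 role groups were read from the same fits, with a call at an edgeR adjusted p under 0.01 over all genes tested. At P5, 49 had enough counts, of which 34 fell in primed cells (31.1% of all genes tested) and 7 rose (31.2%). At P15, 28 of 48 fell (28.4% of all genes) and 8 rose (28.2%). The same shares over all genes stand beside the counts by role group below. Their median log2 fold change was −0.47 at P5 and −0.35 at P15, against 0.01 and −0.00387 over all genes. These lists too were chosen with earlier results of these data known, so nothing is read from the gap to all genes. Genes named for the smallest adjusted p at P5 were picked from the same fit that gave that p. Beside the genes picked by the naming rule, genes are named below where a count was small, after their values were seen.

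In serine synthesis, 3 of 3 genes (Phgdh, Psat1 and Psph) fell at both passages. Psat1, the aminotransferase of the path, fell by 1.77 ± 0.04 on the log2 scale at P5 (edgeR adjusted p = 1.21e-25) and by 1.02 ± 0.06 at P15 (adjusted p = 1.41e-17). It was at 385 to 428 CPM in the naïve libraries, 117 and 124 in primed P5 and 201 and 201 in primed P15. Psph, the phosphatase of the last step, fell by 1.61 ± 0.08 and 1.10 ± 0.09 (adjusted p = 5.04e-17 and 5.69e-13). Among the partners of Gldc in glycine cleavage, 3 of 3 fell at P5 (Amt, Gcsh and Dld) and 2 of 3 at P15. Amt, the aminomethyltransferase, fell by 0.81 ± 0.06 at P5 and by 1.51 ± 0.08 at P15 (edgeR adjusted p = 2.74e-13 and 4.82e-18), and Gcsh, the lipoyl carrier protein, fell by 0.65 ± 0.05 and 0.37 ± 0.07 (adjusted p = 7.43e-12 and 1.5e-05). Amt, like Gldc, was thus lower in primed cells at P15 than at P5, at 26.3 and 23.9 CPM against 39.3 and 41.8.

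Purine synthesis, which uses folate-bound formate, fell in 6 of 6 genes at both passages. Gart, a trifunctional enzyme of the path, fell by 1.28 ± 0.04 at P5 and 1.07 ± 0.06 at P15 (edgeR adjusted p = 6.9e-23 and 1.75e-18), and Ppat, its first enzyme, by 0.84 ± 0.04 and 0.70 ± 0.06 (adjusted p = 5.2e-17 and 5.28e-12). In the supply of thymidine nucleotides beside Tyms, 4 of 4 genes fell at P5 (Tk1, Dtymk, Dut and Dctd) and 2 of 4 at P15. These 2 were Dtymk, the thymidylate kinase, at −0.98 ± 0.04 and −1.09 ± 0.06 (edgeR adjusted p = 6.67e-18 and 1.87e-17), and Tk1, the cytosolic thymidine kinase, at −0.76 ± 0.07 and −0.43 ± 0.08 (adjusted p = 1.71e-11 and 9.23e-06). Beside them, 24 S phase genes were counted: 23 fell at P5 (31.1% of all genes) and 19 at P15 (28.4%). Their median log2 fold change was −0.77 and −0.51. These transcript levels do not measure replication. By flow cytometry at P5, the paper found a longer G1 phase in primed cells. Whether cell cycle had a part in the levels of Tyms and the folate enzymes was not tested.

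In folate uptake and conversion, 5 of 13 tested genes were lower (31.1% of all genes) and 3 higher (31.2%) at P5. At P15, 4 were lower (28.4%) and 4 higher (28.2%). These counts were near the shares over all genes. Folr1, a folate receptor, fell by 2.72 ± 0.14 at P5 and dropped by 3.20 ± 0.16 at P15 (edgeR adjusted p = 5.95e-17 and 1.35e-19), from 21.6 to 27.3 CPM in naïve libraries to 2.61 to 3.55 CPM in primed libraries. Fpgs, which adds the glutamate tail that holds folate in the cell, fell by 0.71 ± 0.06 and 0.50 ± 0.08 (adjusted p = 3.03e-11 and 1.15e-06). The formyltetrahydrofolate dehydrogenases went opposite ways. Aldh1l1, the cytosolic one, rose by 1.06 ± 0.17 at P5 and 2.29 ± 0.17 at P15 (edgeR adjusted p = 2.99e-06 and 1.68e-14), and Aldh1l2, the mitochondrial one, fell by 1.76 ± 0.22 and 2.79 ± 0.18 (adjusted p = 4.88e-08 and 7.38e-16). Aldh1l2 was at 140 CPM in MEF and at 1.49 to 20.3 CPM in the naïve and primed libraries, so a feeder share of the median size would exceed its level there. In naïve cells Aldh1l2 rose from 6.81 and 6.68 CPM at P5 to 16.1 and 20.3 CPM at P15 (1.44 ± 0.14, edgeR adjusted p = 1.7e-05). In primed cells it had 1.49 and 2.44 CPM at P5 and 2.30 and 3.01 CPM at P15, so the larger difference at P15 went with the higher naïve level. The median share is thus too high for Aldh1l2. The share by the lowest fibroblast marker (2.51 to 2.97% in primed libraries, 5.77 and 5.87% in naïve P5) would exceed its level in these libraries as well. Whether either share is also too high for the other genes to which it was applied was not tested.

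In the methionine cycle and transsulfuration, 8 of 10 tested genes fell and 2 rose at P5 (Mat1a and Ahcyl1), and 7 of 9 fell and 1 rose at P15 (Ahcyl1). Cth, which makes cysteine, fell by 1.75 ± 0.07 and 0.89 ± 0.08 (edgeR adjusted p = 8.44e-19 and 9.68e-13). Mat2a, the S-adenosylmethionine synthetase of most cells, fell by 0.77 ± 0.04 and 0.33 ± 0.06 (edgeR adjusted p = 9.76e-16 and 7.16e-06). Gnmt, a glycine methyltransferase, fell by 1.88 ± 0.31 and 2.98 ± 0.42 from 2.75 to 4.12 CPM in naïve libraries (adjusted p = 3.32e-06 and 9.35e-08). In threonine and serine transport and breakdown, 10 genes were tested. Of these, 5 fell at P5 (31.1% of all genes), namely Slc7a5, Slc38a2, Slc3a2, Slc1a5 and Sfxn1, and 2 rose (31.2%), Sdsl and Slc38a1. At P15, 4 fell (28.4%), all but Sfxn1, and 3 rose (28.2%), namely Sdsl, Srr and Slc1a4. Slc7a5, a transporter of large neutral amino acids, fell by 1.18 ± 0.04 and 0.84 ± 0.06 (edgeR adjusted p = 2.85e-21 and 1.74e-14), and Slc38a2, a transporter of small neutral amino acids, by 1.04 ± 0.04 and 0.75 ± 0.06 (adjusted p = 3.56e-21 and 1.96e-14). Sdsl, a serine dehydratase-like gene, rose by 2.64 ± 0.40 and 3.05 ± 0.51 from 3 to 9 counts per naïve library (adjusted p = 1.25e-06 and 2.43e-06).

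**Figure D4:**
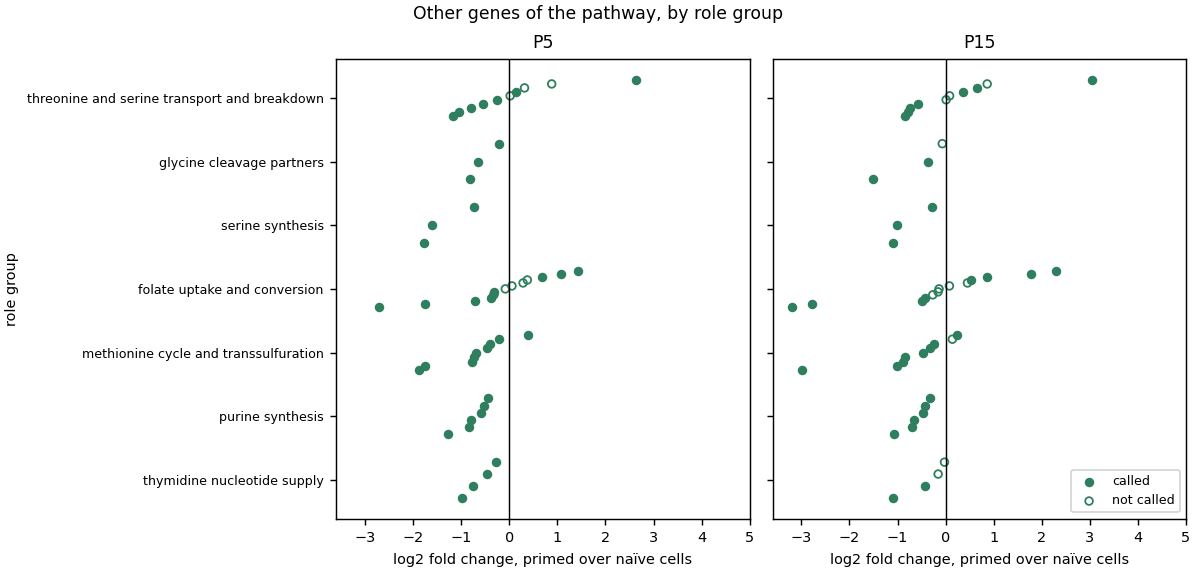
Fitted log2 fold change of primed over naïve cells (horizontal axis) of the other pathway genes with enough counts, by role group (vertical axis), at P5 (left) and P15 (right); filled points passed an adjusted p of 0.01 and open points did not. Mat1a, with 0 counts in both naïve P5 libraries, is not drawn. Serine synthesis and purine synthesis lay wholly below 0 with all points called at both passages.

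Between the passages, 1 of 47 pathway genes fell in naïve cells (Slc38a2, 5.01% of all genes) and 7 rose (4.21%). In primed cells, 22 of 49 rose from P5 to P15 (24.3% of all genes) and 3 fell (22.8%), namely Amt, Mat1a and Paics. The test of the difference between the state effects called 16 of 49 as less lowered or more raised at P15 (13.3% of all genes) and 1, Amt, as more lowered (10.8%). Among the 16 were Psat1, with a difference of 0.77 ± 0.07 (edgeR adjusted p = 2.39e-10), Cth, with 0.88 ± 0.11 (adjusted p = 6.87e-08), and Aldh1l1, with 1.24 ± 0.24 (adjusted p = 0.000129). Of the 24 S phase genes, 17 rose (24.3% of all genes) and 1, Cdt1, fell (22.8%) in primed cells from P5 to P15. Targets of the amino acid stress factor ATF4 outside the pathway lists numbered 12. Of these, 9 fell (31.1% of all genes) and 2 rose (31.2%) in primed cells at P5, the latter Slc7a11 and Vldlr. At P15, 7 fell (28.4%) and 3 rose (28.2%), the latter Slc7a11, Vldlr and Stc2. Asns, asparagine synthetase, fell by 1.42 ± 0.04 at P5 (edgeR adjusted p = 1.97e-23) and by 1.60 ± 0.06 at P15 (adjusted p = 1.38e-22). Slc7a11, the cystine transporter, rose by 4.89 ± 0.10 at P5 (adjusted p = 2.07e-26) and by 1.66 ± 0.16 at P15 (adjusted p = 2.62e-11).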

How the data were processed

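Poly(A) RNA of 9 samples was sequenced on the Illumina HiSeq. According to the methods and the labels, the authors trimmed reads with Cutadapt, aligned them to mm10 with HISAT2, which could keep several alignments of a read, and used featureCounts with an Ensembl annotation for counting. The deposited values are raw counts per gene, not normalized. The annotation release, the strand setting and how featureCounts treated reads with several alignments were not given in the sources used here. Entries without a gene name (153) held 0.0116 to 0.0165% of counts, and 92 spike-in entries held 0 counts.

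From the counts, CPM was computed with TMM scaling. Fold changes and tests came from edgeR 4.0.16 (quasi-likelihood, R 4.3.3), on the 4 libraries of each comparison, or all 8 for the difference between passages, over genes with at least 10 counts in at least 2 libraries, with Benjamini-Hochberg adjustment and a call at 0.01. The standard error is the log2 fold change divided by the square root of F. For Tdh in comparisons with primed P15 (11 and 8 counts), it was smaller than the shift from leaving out a primed P15 library. The fit was tested on simulated data. The study calls the replicates biological repeats, but neither it nor the labels say whether they were separate cultures, so p-values measure only the spread between these libraries. Replicates differed by more than counting noise (chi-square per gene 2.10 to 3.28, with 1 expected). Gene positions are from GENCODE M21, whose build GRCm38 is that of mm10.

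The members, the pathway lists and the tests were chosen with earlier results of these data known. Named were all members, the 2 pathway genes of smallest adjusted p at P5 in each role group, and those called at least 2-fold in the same direction at both passages. Also named were those whose state effects differed by at least 1 on the log2 scale with an adjusted p under 0.01. Alternatives were other scalings, no count filter, DESeq2 1.42.0, 1 fit of 8 libraries, a replicate block, a subtracted feeder share and leaving out each replicate. Some single genes of the lists are not reported here.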

Additional observations from a re-analysis of the deposited data

Results flagged for a closer look

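For 10 named pathway genes, the effect of state differed between the passages by the edgeR test of the difference itself (adjusted p under 0.01). The difference, P15 minus P5 on the log2 scale, was 0.36 for Slc7a5, 0.31 for Slc38a2, 0.77 for Psat1, 0.53 for Psph, 0.88 for Cth, 0.46 for Mat2a, 0.22 for Gart, 0.35 for Tk1 and 1.24 for Aldh1l1, and −0.68 for Amt. That of Slc7a5 depended on the feeder estimate: after subtraction of the feeder share it was −0.14 (edgeR adjusted p = 0.705). The share taken off was the median one, which was too high for Aldh1l2. For Mthfd1l, both primed libraries lay below both naïve libraries at P5 and above them at P15, a difference of 0.79 on the log2 scale that was not tested.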

How the results depend on the processing

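All 9 members kept their direction at P5, at P15 and between passages in primed cells under every alternative run. In naïve cells Shmt1 turned from 0.02 to −0.0059 with library size alone. Library size alone also gave 11 in place of 7 pathway genes called higher at P5, 6 in place of 3 called lower between passages in primed cells, 4 in place of 1 with a lower state effect at P15, and 3 in place of 5 members at least 2-fold lower at P5. That scaling moved the median of all genes by 0.20 at P5, 0.10 at P15, −0.13 between primed passages and −0.11 for the difference, and the share of calls that were higher from 50.1 to 65.8% at P5, from 51.5 to 34.2% between primed passages and from 55.0 to 35.2% for the difference. Without a count filter, 2 genes rose between naïve passages in place of 7, and 2 in place of 1 had a lower state effect at P15. After subtraction of the feeder share, 3 rose between naïve passages, and the difference of Slc7a5 turned from 0.36 to −0.14 (adjusted p = 0.705 by edgeR). Leaving out 1 library gave 4 to 6 genes called higher at P5 (4 without primed P5 replicate 1), 0 to 1 lower (0 without naïve P5 replicate 1) and 3 to 6 higher between naïve passages (4 and 3 without naïve P5 replicates 1 and 2), 1 to 2 with a lower state effect at P15 (2 without primed P5 replicate 1 or naïve P15 replicate 1) and 9 to 15 with a higher one (9 without primed P5 replicate 2). The cause was not tested. The replicate block gave 3 in place of 1 gene called lower between naïve passages and changed no other count by over 1.5 times. Same-numbered libraries deviated together between passages (r = 0.16 in either state) and apart between states (r = −0.13 at P5, −0.19 at P15), and no source ties a number to a shared culture or day, so the numbers were not taken as pairs. The crossed pairing, added after seeing the data, gave 34 lower and 7 higher pathway genes at P5 and 28 and 9 at P15. Depth limits Tdh in primed P15 (8 and 11 counts).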
